A study of Rattus norvegicus with 138 samples.

Results

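The 8 genes described here make, load, take up, break down or sense GABA, and they were followed in the brainstem of female rats. They are Gad1, Gad2, Slc32a1, Slc6a11, Abat, Aldh5a1, Gabbr1 and Gabbr2. Their rows were picked by symbol, and each symbol had 1 row in each regional table of 32883 genes. The list of symbols was made with earlier results of these data known. All 8 had enough reads to be tested in all 3 regions. The rats were spontaneously hypertensive rats (SHRs, SHR/NHsd), an inbred strain that becomes hypertensive as it ages, and Wistar-Kyoto rats (WKY, WKY/NHsd), the related inbred normotensive strain used as control; no drug or transgene was used. The regions were the nucleus of the solitary tract (NTS), the caudal ventrolateral medulla (CVLM) and the rostral ventrolateral medulla (RVLM), each taken as pooled left and right punches, so that 46 rats gave 138 RNA-seq libraries; each rat was sampled at 1 age. From the youngest age (8 wk) through 10, 12 and 16 wk to the oldest (24 wk), WKY groups held 5, 4, 3, 3 and 3 rats and SHR groups held 5, 5, 6, 6 and 6.

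GABA is the main fast inhibitory transmitter of the brain. Glutamate decarboxylase, encoded by Gad1 and Gad2, makes it from glutamate, and the vesicular transporter encoded by Slc32a1 loads it into synaptic vesicles. After release it is cleared by membrane transporters, among them Slc6a11 (GAT-3), which is found largely on astrocytes. It is then broken down in mitochondria by GABA transaminase (Abat) and succinic semialdehyde dehydrogenase (Aldh5a1). Gabbr1 and Gabbr2 encode the subunits of the metabotropic GABA-B receptor, so the 8 genes also cover the slow receptor arm of the system. In the medulla, baroreceptor input reaches the NTS, excites CVLM neurons, and these inhibit through GABA the sympathetic premotor neurons of the RVLM.

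A value is called here when its p, adjusted over all genes tested in that comparison, is under 0.05. Abat was the gene that differed most often between the strains. It was lower in SHRs in all 3 regions, with falls of 27.6% (NTS), 21.0% (CVLM) and 29.1% (RVLM) as a mean over the 5 ages. Gad1 was lower and Gabbr1 higher in the SHR NTS, and the other 5 genes were not called for the mean strain effect in any region. Between regions Gad1 differed more than between the strains and was 4 times as high in the NTS as in the RVLM of WKY rats.

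Promoter sequence was matched by symbol in RefSeq (build GRCr8) for 7 of the 8 genes, all but Abat. The stretches just before the first annotated base of Gad1, Gad2 and Slc32a1 are shown because these 3 genes are used together by GABA neurons. Gad1 and Gad2 had the same regional order, given further on, and Slc32a1, which had very few reads, did not follow it. Capitals mark a GC box (GGGCGG or its complement CCGCCC) or a TATA motif (TATAAA or TTTATA). The coordinates are those of GRCr8, plus strand, and not of the rn6 build to which the reads were mapped.
Gad1, chr3:75777202-75777259: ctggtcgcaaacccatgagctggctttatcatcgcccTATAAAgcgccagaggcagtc
Gad2, chr17:89671468-89671717: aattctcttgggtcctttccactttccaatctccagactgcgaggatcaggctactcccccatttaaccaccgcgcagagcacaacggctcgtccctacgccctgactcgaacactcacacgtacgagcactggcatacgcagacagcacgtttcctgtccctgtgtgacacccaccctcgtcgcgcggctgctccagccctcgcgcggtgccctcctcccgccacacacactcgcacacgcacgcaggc
Slc32a1, chr3:167686995-167687244: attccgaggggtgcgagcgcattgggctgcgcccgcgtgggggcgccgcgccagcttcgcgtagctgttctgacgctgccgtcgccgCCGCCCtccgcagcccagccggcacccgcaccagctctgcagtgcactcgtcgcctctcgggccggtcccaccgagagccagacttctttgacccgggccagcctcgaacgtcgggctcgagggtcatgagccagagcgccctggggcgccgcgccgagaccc
The short Gad1 stretch holds a TATA motif, the Slc32a1 stretch holds a GC box and the Gad2 stretch holds neither. Of the 250 bases listed for Gad1, only the 58 before its first annotated base are shown, and the part not shown holds a GC box. In the 250 bases before the start listed for each of 33469 RefSeq promoters, 30.5% held a GC box and 12.9% a TATA motif on either strand. A match in these windows is a description of the letters only.

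Depth was between 5904570 and 17889406 counts per library, with a median of 10143018. The name of each library ends in 1 or 2, whose meaning is not given in the labels; all 9 rats at 10 wk, 3 WKY rats at 8 wk, 1 SHR at 12 wk and 1 SHR at 24 wk carry the number 2. A pair of CVLM libraries (replicate 5 of either strain at 8 wk) are 8 wk by title but 10 wk by their age label and were kept at 8 wk. In the RVLM libraries the summed level of catecholamine neuron markers lay between 32.4 and 317 CPM (counts scaled to a library of 1000000), against 163 to 419 CPM for NTS and 183 to 453 CPM for CVLM libraries. The summed motor neuron markers lay between 570 and 1971 CPM there, against 126 to 630 CPM (NTS) and 32.2 to 191 CPM (CVLM). The part of these differences in the results below was not tested. These are tissue punches, so fewer cells of a type and less RNA per cell cannot be told apart.

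The transaminase gene Abat was read first in the NTS. At 8 wk the 5 WKY rats had 179, 206, 187, 213 and 209 CPM and the 5 SHRs had 174, 202, 206, 158 and 161 CPM. The groups overlapped at this age. At 10 wk the 4 WKY rats had 157, 201, 178 and 173 CPM and the 5 SHRs had 136, 113, 112, 117 and 101 CPM. Every SHR lay below every WKY rat, and this held at 12, 16 and 24 wk as well. At 12 wk the WKY values were 180, 208 and 184 CPM, and the 6 SHRs ran from 103 through a median of 143 to 165 CPM. At 16 wk the WKY values were 195, 187 and 208 CPM, and the SHRs ran from 116 through 136 to 155 CPM. At 24 wk the WKY values were 239, 240 and 183 CPM, and the SHRs ran from 112 through 157 to 175 CPM. The fitted log2 differences (SHR minus WKY, here and below) were -0.14 ± 0.11 (SE) at 8 wk and then -0.62 ± 0.12, -0.46 ± 0.12, -0.54 ± 0.12 and -0.57 ± 0.12. The last 4 were called, with adjusted p of 0.000555, 0.0242, 0.00700 and 0.00346 (edgeR quasi-likelihood, adjusted over all genes tested), and that at 8 wk was not, with 0.452. The call at 12 wk was lost without any 1 of the 3 WKY rats or of SHR replicates 3 and 6 of that age (adjusted p up to 0.283), that at 16 wk without WKY 16 wk replicate 3 (0.0828) and that at 24 wk without WKY 24 wk replicate 1 (0.0703), all by edgeR. With each age fitted alone the calls at 12 and 24 wk were lost (edgeR adjusted p = 0.261 and 0.0899), and with the neuron and astrocyte marker levels as covariates that at 12 wk was (0.0906). Of all genes tested in the NTS, 5.79%, 4.44%, 3.1%, 1.73% and 2.46% were called at the 5 ages in order, and 3.89%, 7.68%, 5.7%, 6.48% and 6.33% had groups that did not overlap.

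In the RVLM the pattern of Abat was alike. At 8 wk the WKY rats had 110, 113, 114, 101 and 99.8 CPM and the SHRs 78.6, 112, 93.0, 92.7 and 112 CPM, which overlapped. At 10 wk the WKY rats had 90.1, 99.3, 116 and 105 CPM and the SHRs 61.6, 60.9, 69.7, 57.7 and 69.7 CPM. The 10 wk groups were apart, and the SHR mean of 63.9 ± 5.46 CPM (SD, n = 5) was the lowest Abat group mean of any region, strain or age. At 12 wk the WKY rats had 129, 138 and 122 CPM and the SHRs 58.1 to 118 CPM with a median of 89.8 CPM. At 16 wk the WKY rats had 150, 116 and 152 CPM and the SHRs 92.4 to 118 CPM with a median of 96.1 CPM. Only at 16 wk did 1 SHR, at 118 CPM, reach into the WKY range after 8 wk. At 24 wk the WKY rats had 120, 163 and 134 CPM and the SHRs 80.0 to 111 CPM with a median of 86.3 CPM. The log2 differences were -0.14 ± 0.12, -0.68 ± 0.13, -0.55 ± 0.14, -0.49 ± 0.14 and -0.63 ± 0.14 from the youngest to the oldest age. Adjusted p (edgeR) was 0.000577, 0.0196 and 0.00340 at 10, 12 and 24 wk, whereas 8 and 16 wk were not called (0.476 and 0.0579). The call at 24 wk was lost without WKY 24 wk replicate 2 (adjusted p = 0.0755) and that at 12 wk without WKY 12 wk replicate 1 or 2 or SHR 12 wk replicate 4 or 6 (up to 0.179), while that at 16 wk was gained when any 1 of 9 rats was left out (edgeR). With each age fitted alone the 12 wk call was lost (edgeR adjusted p = 0.540), and the 16 wk value was called by DESeq2 (adjusted p = 0.0347) and by edgeR once the number-2 libraries of other ages than 10 wk were dropped (0.00746). In the RVLM 9.78%, 2.3%, 1.7%, 1.65% and 2.24% of all genes were called at the 5 ages in order, and 4.91%, 5.98%, 4.3%, 4.18% and 9.25% had groups apart.

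In the CVLM the Abat difference was nominally smaller and less even, but was not shown to differ from the other regions or between ages. At 8 wk the WKY rats had 145, 138, 118, 120 and 113 CPM and the SHRs 122, 104, 124, 121 and 96.9 CPM. At 10 wk the WKY rats had 132, 116, 124 and 134 CPM and the SHRs 95.5, 92.2, 92.2, 88.9 and 92.8 CPM. The 10 wk groups were well apart and the SHR values nearly equal, although this difference was not called (-0.46 ± 0.14, adjusted p = 0.0567, edgeR). It was called in 6 of 10 alternative fits, among them DESeq2 (adjusted p = 0.0334) and each age fitted alone (0.00116, edgeR). At 12 wk the WKY rats had 139, 156 and 131 CPM and the SHRs 91.7 to 123 CPM with a median of 102 CPM, again without overlap and without a call (-0.45 ± 0.14, adjusted p = 0.0909, edgeR). At 16 wk the WKY rats had 129, 137 and 123 CPM and the SHRs 103 to 142 CPM with a median of 123 CPM, and the groups lay over each other (-0.08 ± 0.15). At 24 wk the WKY rats had 180, 182 and 193 CPM and the SHRs 95.8 to 213 CPM with a median of 110 CPM. A single SHR, replicate 5, stood above all WKY rats at 213 CPM while the other 5 lay at 95.8 to 122 CPM. The 24 wk difference was called (-0.56 ± 0.14, adjusted p = 0.0111, edgeR); without WKY 24 wk replicate 3 it was not (-0.53, adjusted p = 0.0761), nor with each age fitted alone (0.240). The calls at 10 and 12 wk were gained without SHR 24 wk replicate 5 and that at 10 wk also without SHR 24 wk replicate 6 (edgeR). In the CVLM 7.64%, 3.18%, 2.62%, 2.27% and 7.13% of all genes were called at the 5 ages in order, and 4.68%, 6.74%, 5.21%, 5.85% and 12.2% had groups apart.

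**Figure D1:**
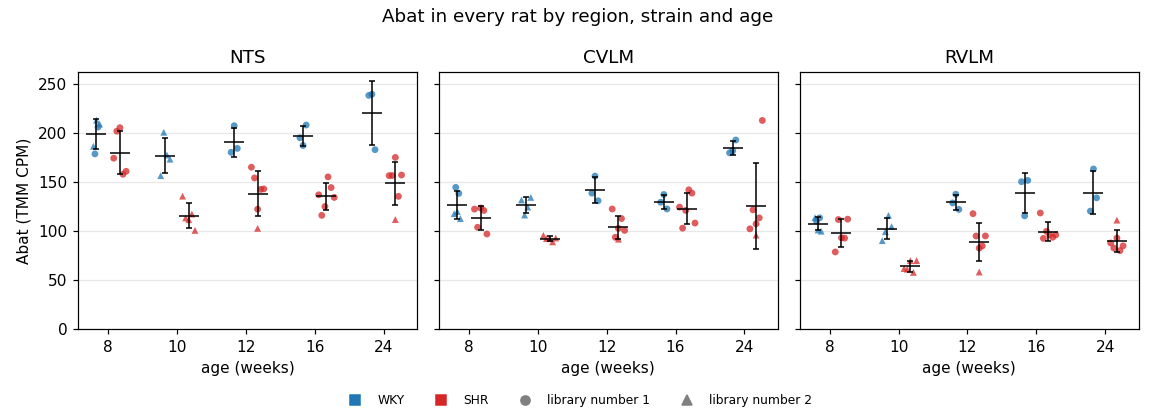
Abat level (TMM-scaled CPM, y axis) in every rat against age in weeks, in NTS, CVLM and RVLM, for WKY (blue) and SHRs (red); the bars are mean ± SD, and triangles are libraries whose name ends in 2. From 10 wk on, the red points of the NTS lie below all blue points, while the 8 wk points overlap in each region.

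Over the 5 ages together the mean Abat difference was -0.47 ± 0.05 (NTS), -0.34 ± 0.06 (CVLM) and -0.50 ± 0.06 (RVLM), with edgeR adjusted p of 6.99e-09, 6.46e-05 and 1.60e-08. The sign was negative at 15 of 15 combinations of region and age, and 8 of them were called. Of 13116 genes tested in all 3 regions, 378 (2.88%) were likewise called lower in SHRs in each. The 8 alternative fits in the NTS and RVLM and the 9 in the CVLM all kept these calls, as did leaving out each of the 46 rats, with values from the alternative fits between -0.49 and -0.43 (NTS), -0.39 and -0.32 (CVLM), and -0.51 and -0.47 (RVLM). The smaller value at 8 wk was not shown to differ from the later ages: the test of a strain effect that varies with age gave adjusted p (edgeR) of 0.401, 0.489 and 0.842 in the 3 regions. In that test edgeR called 0 of the 24 values of the 8 genes (5 at an unadjusted p under 0.05; DESeq2 also called 0) and 0.0145%, 0.0224% and 0.00746% of all genes. With the library number as a term the 8 wk values were -0.30 ± 0.12 (NTS), -0.34 ± 0.14 (CVLM) and -0.20 ± 0.14 (RVLM), none of them called. The SHR with library number 2 at 12 wk had the lowest Abat of its 6 rats in each region (103, 91.7 and 58.1 CPM in NTS, CVLM and RVLM). The one at 24 wk was lowest in NTS and CVLM (112 and 95.8 CPM) and highest in the RVLM (111 CPM). The part of the library number in the Abat values was not tested beyond these fits.

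Astrocytes and neurons both use GABA transaminase, and their markers were read beside Abat. No gene of the 8 neuron markers was called for the mean strain effect in any region, and the median log2 difference of that list was -0.04, 0.01 and 0.01 in NTS, CVLM and RVLM. Of 8 astrocyte markers, S100b was called lower in all 3 regions and Aldh1l1 higher in the RVLM. Beside these and the marker counts below, 5.51%, 7% and 4.98% of all genes were called lower in NTS, CVLM and RVLM. Those called higher were 5.66%, 5.28% and 5.84%. The summed astrocyte markers lay at 4842 to 7229 CPM in WKY rats and 3646 to 4862 CPM in SHRs (NTS), at 3230 to 5027 and 2390 to 3422 CPM (CVLM), and at 3837 to 5824 and 2299 to 4259 CPM (RVLM). Without S100b, a choice made after its value was seen, the medians were 2574 and 2532 CPM in the NTS, 1695 and 1704 CPM in the CVLM, and 1716 and 1775 CPM in the RVLM for WKY rats and SHRs. With the mean log2 levels of both lists as covariates the Abat difference was -0.49 ± 0.06, -0.34 ± 0.07 and -0.51 ± 0.07 (edgeR adjusted p = 2.34e-08, 0.000714 and 1.09e-07). The astrocyte list kept S100b in every fit with these covariates, so the astrocyte covariate includes the strain difference of S100b. Of 6 oligodendrocyte markers, 1, 4 and 3 were called lower in NTS, CVLM and RVLM; of 6 microglial markers Tmem119 was called lower in all 3 regions and Aif1 in the CVLM. In the NTS the choroid plexus markers Ttr, Folr1 and Clic6 (3 of 5 tested) and the ependymal markers Dynlrb2 and Ccdc153 (2 of 4 tested) were called lower, with list medians of -1.66 and -0.70. The summed choroid plexus markers there ran from 3.20 through a median of 5.44 to 4583 CPM in WKY rats and from 2.15 through 5.05 to 10.2 CPM in SHRs, and the summed ependymal markers from 4.75 through 21.3 to 76.7 CPM and from 1.58 through 11.2 to 29.5 CPM. In the RVLM Dynlrb2 was the 1 ependymal marker tested and was called lower. The part of these markers in the Abat difference was not tested.

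Aldh5a1, the next enzyme of the breakdown pathway, was not called between the strains. Its mean log2 difference was 0.03 ± 0.12 (NTS), -0.04 ± 0.11 (CVLM) and -0.15 ± 0.13 (RVLM), with 95% intervals from -0.20 to 0.27, -0.25 to 0.18 and -0.40 to 0.10. None of its 15 comparisons at single ages was called. The farthest from 0 was at 8 wk in the RVLM, with 31.7 ± 6.91 CPM in WKY rats and 20.7 ± 7.64 CPM in SHRs (SD, n = 5 each; -0.61 ± 0.27, edgeR adjusted p = 0.129).

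**Figure D2:**
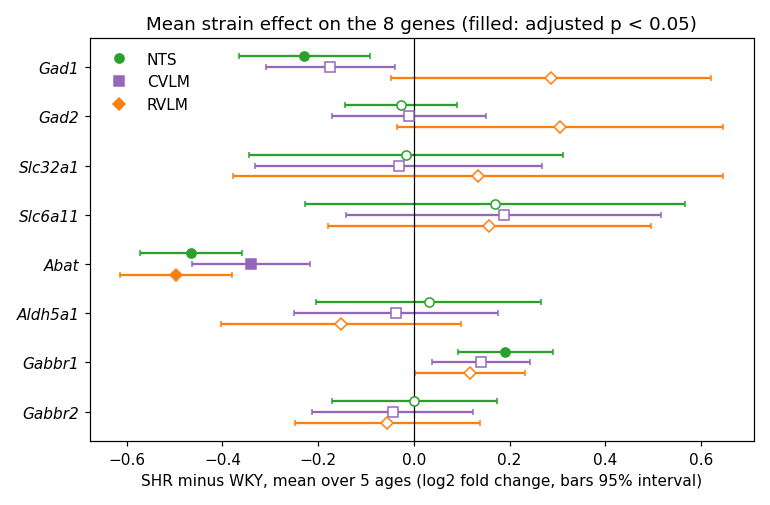
Mean strain effect over the 5 ages (x axis, log2 fold change, SHR minus WKY) with 95% intervals for each of the 8 genes in NTS (circles), CVLM (squares) and RVLM (diamonds); filled symbols are called. The 3 Abat symbols lie together between -0.34 and -0.50, and only Gad1 and Gabbr1 in the NTS are filled besides.

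Of the synthesis genes, Gad1 encodes GAD67, the isoform spread through the cell body that makes most of the brain's GABA, and Gad2 encodes GAD65, which is concentrated at nerve terminals. In the NTS, Gad1 at 10 wk was 453, 490, 484 and 541 CPM in WKY rats and 263, 310, 330, 441 and 371 CPM in SHRs. The groups were apart, and the difference was called (-0.52 ± 0.15, edgeR adjusted p = 0.0377). It lost its call when any of 8 of the 9 rats at 10 wk was left out, the exception being SHR 10 wk replicate 4. It was also lost with no filter (edgeR adjusted p = 0.0610), with each age fitted alone (0.0520) and with the mean marker levels of neurons and astrocytes as covariates (-0.32 ± 0.15, adjusted p = 0.153). At the other ages NTS Gad1 had group means of 329, 330, 288 and 311 CPM in WKY rats and 278, 287, 268 and 296 CPM in SHRs at 8, 12, 16 and 24 wk, with overlap at each. The mean over the ages was -0.23 ± 0.07 (edgeR adjusted p = 0.0231), and 13 of 28 SHRs lay below all 18 WKY rats. Leaving out WKY 16 wk replicate 1 or WKY 24 wk replicate 1 ended that call (-0.21 and -0.20), and with the neuron and astrocyte covariates it was -0.15 ± 0.07 (edgeR adjusted p = 0.132).

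In the CVLM the Gad1 difference stood at 8 wk, and the mean over ages was -0.17 ± 0.07 and not called (edgeR adjusted p = 0.0990), but -0.31 ± 0.07 and called with the neuron and astrocyte covariates (0.000819). At 8 wk the WKY rats had 249, 190, 309, 297 and 265 CPM and SHRs 153, 160, 169, 155 and 168 CPM. No SHR reached the lowest WKY rat, and the difference was -0.70 ± 0.14 (edgeR adjusted p = 0.000852), the largest in size of the called strain differences of the 8 genes. At 10, 12, 16 and 24 wk it was -0.24 ± 0.15, -0.03 ± 0.16, 0.11 ± 0.16 and -0.01 ± 0.16, none of them called. Of the 8 wk WKY rats, the 3 with library number 2 were those at 309, 297 and 265 CPM, and all 5 SHRs had the number 1. Without the number-2 libraries outside 10 wk the 8 wk difference was -0.42 ± 0.19 and was not called (edgeR adjusted p = 0.600), and with the number as a term it was -0.56 ± 0.16 (0.0455). The test for a strain effect that varies with age gave adjusted p = 0.276 for CVLM Gad1 (edgeR), and with the neuron and astrocyte covariates 0.0300. The effect at 8 wk set against the mean of the other 4 ages was -0.66 ± 0.16 (adjusted p = 0.0499, edgeR), and -0.38 ± 0.21 (adjusted p = 1) without the number-2 libraries outside 10 wk. This contrast was planned only for genes called in the test over the ages. That test did not call CVLM Gad1 by edgeR without covariates, so the contrast is given as a description only.

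In the RVLM, Gad1 was nominally higher in SHRs at each age, from 0.03 to 0.44 on the log2 scale, and no value was called. Rats of a group differed far more there: the median coefficient of variation over the 10 groups was 36.5% in the RVLM, against 11.2% in the NTS and 16.8% in the CVLM. At 24 wk the WKY rats had 36.7, 89.3 and 99.8 CPM and the SHRs ran from 49.8 through a median of 107 to 156 CPM. The mean over ages was 0.29 ± 0.17, with a 95% interval from -0.05 to 0.62. Set against the NTS value in the fit of all regions, the Gad1 strain effect of the NTS minus that of the RVLM was -0.53 ± 0.16. This difference missed the threshold (edgeR adjusted p = 0.0784), in a comparison in which 1.82% of 14043 genes were called, but passed it with limma voom and the animal as a random effect (-0.54 ± 0.15, adjusted p = 0.0267, limma).

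**Figure D3:**
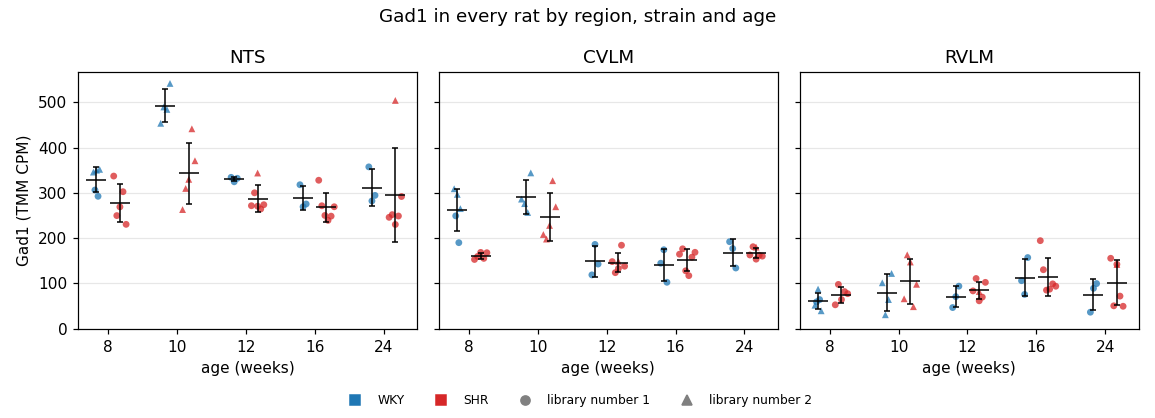
Gad1 level (TMM-scaled CPM, y axis) in every rat against age in weeks, in NTS, CVLM and RVLM, for WKY (blue) and SHRs (red); the bars are mean ± SD, and triangles are libraries whose name ends in 2. The strains are apart in 2 panels, NTS at 10 wk and CVLM at 8 wk, and rats of 1 group are widely spread in the RVLM.

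Gad2 was not called between the strains in any of the 15 comparisons at single ages or for the mean. Its mean difference was -0.03 ± 0.06 (NTS), -0.01 ± 0.08 (CVLM) and 0.31 ± 0.17 (RVLM), with 95% intervals of -0.14 to 0.09, -0.17 to 0.15 and -0.03 to 0.65. At 8 wk in the CVLM it was 269 ± 56.9 CPM in WKY rats and 202 ± 3.31 CPM in SHRs (SD, n = 5 each), a difference of -0.41 ± 0.17 with edgeR adjusted p = 0.135. Rat by rat, however, Gad2 was the gene closest to Gad1. Across the 46 rats, after removing the group means, the log2 levels of Gad1 and Gad2 had Pearson r of 0.737 (NTS), 0.790 (CVLM) and 0.963 (RVLM), and by the mean of these Gad2 ranked 1 of the 13116 genes tested in all regions. All correlations of this kind describe libraries that share depth and dissection and carry no test. The genes next most like Gad1 were Impact (mean r = 0.805) and Usp11 (0.745), and those next most like Gad2 were Gpr165 (0.822) and Scn2a (0.807).

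Slc32a1, the vesicular transporter that every GABA and glycine terminal needs, had very few reads in these tables. It had 1 to 74 counts per library, against 294 to 9625 for Gad1, and group means of 1.32 to 5.14 CPM. Its mean strain differences were -0.02 ± 0.17, -0.03 ± 0.15 and 0.13 ± 0.26 in NTS, CVLM and RVLM. The 95% intervals were -0.34 to 0.31, -0.33 to 0.27 and -0.38 to 0.65, and differences inside these bounds are not excluded. The part of the low counts in these widths was not tested. From rat to rat its r with Gad1 was -0.185, 0.165 and 0.504. The genes most like it were Hdac11, Slc30a3 and Cx3cl1, with mean r of 0.640, 0.630 and 0.612.

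Slc6a11, the astrocytic uptake transporter, varied widely between rats of a group, with a median coefficient of variation of 38.3% (NTS), 36.4% (CVLM) and 38.5% (RVLM), against 9.95% to 11.6% for Abat. In the NTS at 8 wk it was 44.8 ± 24.0 CPM in WKY rats and 20.5 ± 4.94 CPM in SHRs (SD, n = 5 each; -1.14 ± 0.42), and at 10 wk 35.5 ± 4.79 CPM (n = 4) and 65.7 ± 26.6 CPM (n = 5; 0.89 ± 0.44). These opposite differences, the largest in size of the 120 comparisons at single ages, were not called (edgeR adjusted p = 0.0949 and 0.286), and a strain effect that varies with age was not called either (adjusted p = 0.386). The mean over the ages was 0.17 ± 0.20, 0.19 ± 0.17 and 0.16 ± 0.17 in NTS, CVLM and RVLM. From rat to rat it varied with Sdc3 (mean r = 0.918), Fam168b (0.906) and Kcnk9 (0.898). Aldh5a1 had its closest matches in Dnm1 (0.924), Smap2 (0.921) and Limk1 (0.914), and its mean r with Slc6a11 was 0.653. The genes closest to Abat were Pacsin1 (0.606), Taok3 (0.596) and Psat1 (0.590), and its mean r with Slc6a11 was -0.418.

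The GABA-B receptor subunits must pair to reach the surface and signal, Gabbr1 binding the ligand and Gabbr2 coupling to the G protein. Gabbr1 was higher in the SHR NTS. At 10 wk the WKY rats had 218, 217, 229 and 208 CPM and the SHRs 237, 347, 375, 271 and 342 CPM. All SHRs were above all WKY rats, and the difference was 0.53 ± 0.11 (edgeR adjusted p = 0.00184), called in all 9 alternative fits and without each of the 46 rats. At 16 wk the WKY rats had 333, 330 and 324 CPM and the SHRs ran from 292 through a median of 329 to 356 CPM, with no difference seen (-0.01 ± 0.12). The mean over the ages was 0.19 ± 0.05 (adjusted p = 0.00785), and 0.14 ± 0.06 (adjusted p = 0.0732, edgeR) with the neuron and astrocyte covariates. In the CVLM and RVLM it was 0.14 ± 0.05 and 0.12 ± 0.06 and was not called (edgeR adjusted p = 0.0712 and 0.236). The NTS value was not shown to differ from those (adjusted p = 0.976 against the CVLM and 0.711 against the RVLM, edgeR).

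Gabbr2 showed no strain difference that was called at any age or region. Its mean values were 0.00 ± 0.09, -0.04 ± 0.09 and -0.06 ± 0.10, with 95% intervals between -0.25 and 0.17. From rat to rat Gabbr1 was most like Mapk8ip1 (mean r = 0.713), Srebf2 (0.660) and Wdtc1 (0.649), and Gabbr2 most like Eif4g3 (0.754), Ankrd11 (0.753) and Git1 (0.753). The mean r of the subunit genes with each other was 0.257.

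Read together, 11 of the 120 single comparisons of the 8 genes were called, 10 of them lower in SHRs, against 3.87% of all gene comparisons called and 2.17% called lower. Of the 11, 8 were Abat, 2 were Gad1 and 1 was Gabbr1. The 8 genes were chosen with earlier results of these data known. The paper had already reported Abat as lower in each region and Gad1 as lower in the NTS at 10 wk. The shares here therefore describe the 8 genes and are not a test of them as a set. For the mean effect over ages 3 (NTS), 1 (CVLM) and 1 (RVLM) of 8 genes were called, where 11.2%, 12.3% and 10.8% of all genes tested were called. The median log2 difference of the 8 genes was -0.01, -0.03 and 0.13 in these regions, and that of all genes 0.01, -0.00 and 0.01. Groups did not overlap in 12 of the 120 comparisons, and CPM did not overlap in 6.22% of all gene comparisons.

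**Figure D4:**
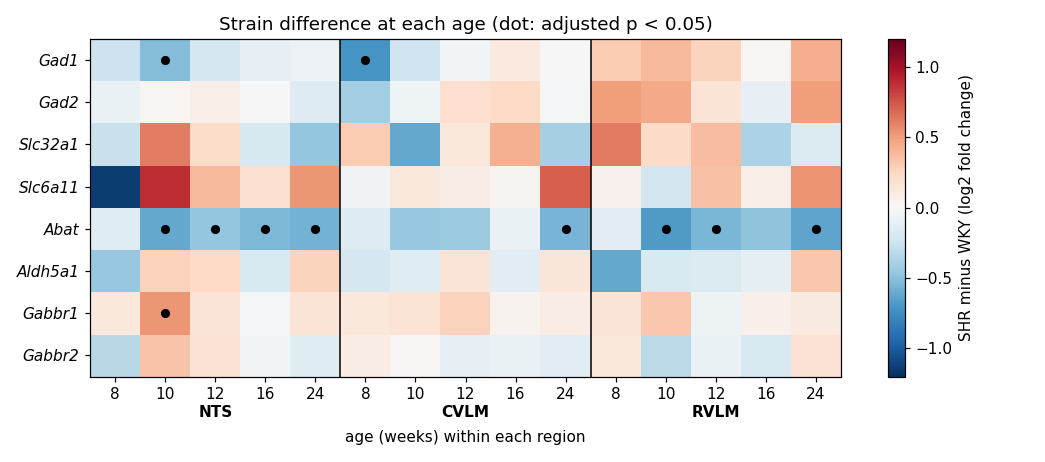
Strain difference (colour, log2 fold change, SHR minus WKY) of the 8 genes at 5 ages in NTS, CVLM and RVLM; a dot marks a called value. The Abat row is blue in all 15 columns and holds 8 of the 11 dots, while the Slc6a11 row turns from blue to red between 8 and 10 wk in the NTS.

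Other genes of the pathway were counted as a list of 22 transporters, suppliers of glutamate and cofactor, receptor partners, chloride transporters and synapse genes, of which 18 were tested in each region. For the mean strain effect 2 were lower (NTS), 4 lower (CVLM) and 1 higher (RVLM), and the list medians were -0.02, -0.00 and -0.02. Of all genes tested, 11.2%, 12.3% and 10.8% were called for the mean effect in these regions. Slc38a1, which carries glutamine into neurons, was 80.5 ± 21.3 CPM in WKY rats and 60.4 ± 11.4 CPM in SHRs in the NTS (SD, n = 18 and 28; -0.43 ± 0.08, edgeR adjusted p = 0.000153) and was also lower in the CVLM (-0.32 ± 0.09, 0.00971). Also lower in the CVLM were Dbi, whose product binds GABA-A receptors (-0.33 ± 0.09, edgeR adjusted p = 0.00568), and Pdxk, a kinase of the vitamin B6 pathway that supplies the cofactor of both glutamate decarboxylase and GABA transaminase (-0.18 ± 0.06, 0.0364). The transporter gene Slc6a13 was higher in the SHR RVLM, at 4.59 ± 2.03 CPM against 3.15 ± 1.14 CPM (0.57 ± 0.16, edgeR adjusted p = 0.0109). At single ages 0, 2 and 0 of 90 values were called in NTS, CVLM and RVLM, the 2 being Dbi and Slc38a1 at 24 wk (-0.83 ± 0.20 and -0.68 ± 0.20, edgeR adjusted p = 0.00591 and 0.0320). Of all gene comparisons at single ages, pooled over regions and ages, 3.87% were called.

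Regions were compared within rats, since each rat gave all 3. Here CPM is scaled over all 138 libraries, and 36 of the 48 comparisons of the 8 genes were called, where 53.1% of all gene comparisons were (52.5%, 62.2% and 39% in WKY rats and 55.7%, 64.4% and 44.8% in SHRs, for NTS against CVLM, NTS against RVLM and CVLM against RVLM). Gad1 fell from NTS to CVLM to RVLM: in WKY rats it was 330 ± 75, 219 ± 76.5 and 81.8 ± 34.0 CPM (SD, n = 18), and in SHRs 272 ± 59.6, 176 ± 43.9 and 102 ± 39.8 CPM (SD, n = 28). In all 46 rats the NTS level exceeded that of the RVLM, by 2.0 ± 0.13 in WKY rats and 1.47 ± 0.10 in SHRs on the log2 scale (edgeR adjusted p = 1.33e-22 and 1.32e-21). Gad2 ran the same way with smaller steps, 264 ± 37.1, 213 ± 75.9 and 98.2 ± 43.6 CPM in WKY rats and 254 ± 46.2, 192 ± 43.9 and 124 ± 50.5 CPM in SHRs, again with NTS above RVLM in all 46 rats. Neighbouring regions also differed for both genes in each strain. The smallest step was 0.40 ± 0.10 for Gad2 between NTS and CVLM of SHRs (edgeR adjusted p = 0.000407). This step lost its call with the neuron and astrocyte covariates (edgeR adjusted p = 0.106).

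Slc32a1 did not follow this order. Its mean was highest in the CVLM (3.73 ± 1.41 CPM in WKY rats and 3.98 ± 1.71 CPM in SHRs). CVLM against RVLM was called in both strains and NTS against CVLM in SHRs only. These 3 calls were lost with the covariates and with no replicate block (0 of 6 pairs called in either), and leaving out single rats (limma voom with a fixed animal block) ended that of NTS against CVLM in 15 of 46 fits and those of CVLM against RVLM in 2 (WKY) and 9 (SHR). The NTS level minus the CVLM level in SHRs was -0.38 ± 0.16 and ran from -0.86 to -0.35 over the alternatives. NTS and RVLM were not distinguished (0.19 ± 0.21 and 0.06 ± 0.16, with 95% intervals from -0.23 to 0.60 and -0.26 to 0.38). Slc6a11 was lowest in the CVLM, at 19.7 ± 8.87 CPM in WKY rats and 21.2 ± 8.87 CPM in SHRs, against 33.8 ± 19.6 and 35.6 ± 18 CPM in the RVLM. The CVLM lay below the RVLM by 0.75 ± 0.16 and 0.71 ± 0.12 and was lower in 16 of 18 and 24 of 28 rats, while NTS and RVLM were not called different (-0.22 ± 0.16 and -0.21 ± 0.12). Among the breakdown genes, Abat ran NTS, CVLM, RVLM in both strains, at 182 ± 21.2, 142 ± 22.8 and 127 ± 21.6 CPM in WKY rats and 133 ± 26.2, 115 ± 24.8 and 93.2 ± 18.2 CPM in SHRs, and the step from CVLM to RVLM was 0.15 ± 0.06 in WKY rats (edgeR adjusted p = 0.0416; lost with the covariates, with no replicate block and in 7 of 46 limma voom fits without 1 rat, up to 0.153) and 0.31 ± 0.05 in SHRs (7.58e-08). Aldh5a1 differed little, with a call only between NTS and RVLM of SHRs (0.35 ± 0.08, edgeR adjusted p = 0.000197).

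The receptor subunits had separate regional orders. Gabbr1 was highest in the NTS, at 244 ± 41.3 CPM in WKY rats and 282 ± 33.2 CPM in SHRs, with CVLM and RVLM not distinguished (-0.08 ± 0.05 and -0.04 ± 0.04). Gabbr2 was highest in the CVLM, at 28.2 ± 5.59 and 28.2 ± 5.88 CPM, and lowest in the RVLM, at 17.5 ± 4.62 and 17.1 ± 3.51 CPM. The CVLM exceeded the RVLM in all 46 rats (0.71 ± 0.09 and 0.72 ± 0.07, edgeR adjusted p = 8.57e-11 and 3.12e-15). With the neuron and astrocyte covariates 23 of the 48 regional comparisons were called. Gad1 kept 6 of its 6, Gad2 5 of its 6 and Abat and Gabbr2 4 of their 6, whereas Gabbr1, Slc32a1 and Aldh5a1 kept 0. Slc6a11 had 4 of 6 called with and without the covariates, but not the same pairs. With them NTS against CVLM lost its call in WKY rats and SHRs (edgeR adjusted p = 0.463 and 0.767), and NTS against RVLM was called in both strains.

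**Figure D5:**
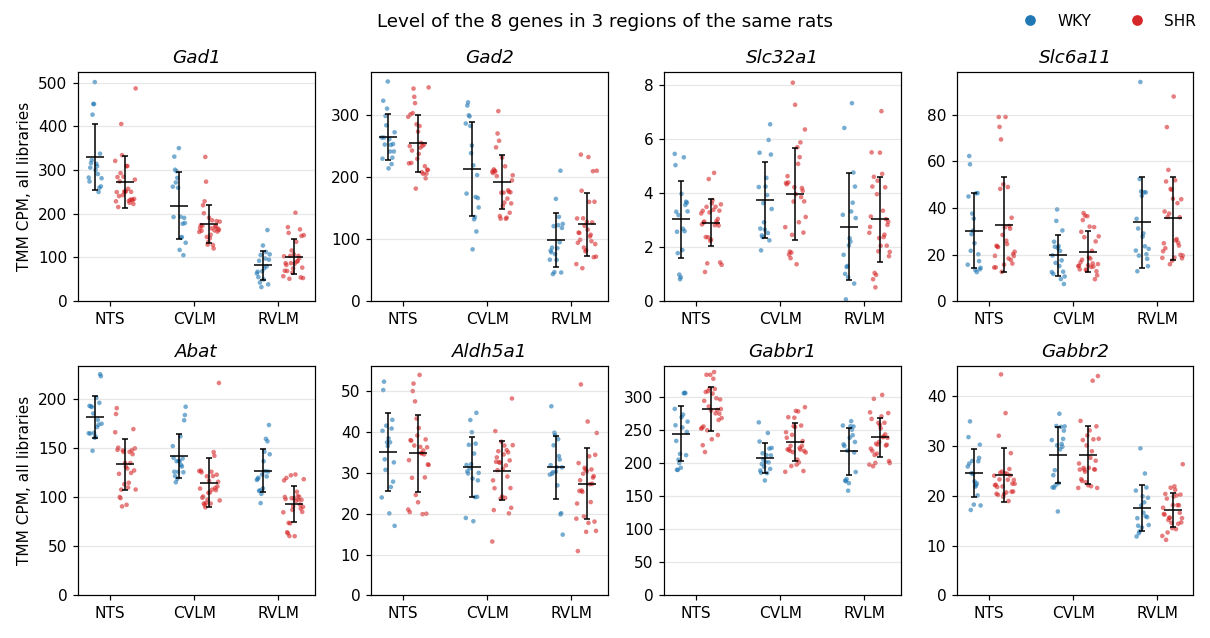
Level of each of the 8 genes (y axis, TMM-scaled CPM over all libraries) in NTS, CVLM and RVLM for 18 WKY rats (blue) and 28 SHRs (red), all ages together; the bars are mean ± SD. Gad1, Gad2 and Abat step down from NTS to RVLM, Gabbr2 is lowest in the RVLM and Slc6a11 lowest in the CVLM.

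The regional steps of the strains were set against each other in the same fit, and none of 24 strain effects was called different between regions by edgeR (4 at an unadjusted p under 0.05; limma voom with the animal as a random effect called 1). The percentages of all genes called there were 0.449% for NTS against CVLM, 1.82% for NTS against RVLM and 0.32% for CVLM against RVLM. For Abat the NTS and RVLM effects differed by 0.02 ± 0.08, with a 95% interval from -0.13 to 0.17. The CVLM effect was nearer to 0 than the RVLM effect by 0.16 ± 0.08 (edgeR adjusted p = 0.927).

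Over the ages within 1 strain, 6 of 24 values were called in WKY rats and 8 of 24 in SHRs. The percentages of all genes called were 12.5%, 22.2% and 6.79% in WKY rats and 18.7%, 20% and 14.1% in SHRs for NTS, CVLM and RVLM. The WKY calls were Gad1 and Gabbr1 in the NTS, Gad1, Gad2 and Abat in the CVLM, and Slc6a11 in the RVLM. The SHR calls were Abat in all 3 regions, Gad2 in NTS and CVLM, Slc6a11 in the NTS, and Gad1 and Slc32a1 in the CVLM. Group means of Gad1 in NTS and CVLM were highest at 10 wk, and Abat means of SHRs lowest at 10 wk in each region. Abat means of WKY rats were also lowest at 10 wk in NTS and RVLM (177 and 102.5 CPM). In the CVLM of WKY rats they were 126.6 CPM at 8 wk and 126.7 CPM at 10 wk. All rats at 10 wk carry library number 2, so the age and the number cannot be told apart there, and with the number as a term edgeR called 0 of the 48 values. In the single number-2 rat of the SHR group at 24 wk, NTS Gad1 was 504 CPM and NTS Abat 112 CPM, against 230 to 292 CPM and 135 to 175 CPM in the other 5 rats.

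Between 24 and 8 wk, 3 of the 48 values were called, all in the CVLM of WKY rats, where 13.7% of all genes were called (0.464% in their NTS and 0.179% in their RVLM). Gad1 was lower at 24 wk by a log2 value of -0.64 ± 0.17, Gad2 by -0.63 ± 0.20, and Abat was higher by 0.55 ± 0.15 (edgeR adjusted p = 0.0105, 0.0310 and 0.0130). The Gad1 values were 249, 190, 309, 297 and 265 CPM at 8 wk and 192, 177 and 134 CPM at 24 wk. None of the 3 was called without WKY 24 wk replicate 3, with the library number as a term, or without the number-2 libraries. Gad2 also lost its call with the neuron and astrocyte covariates (edgeR adjusted p = 0.0675) and with the replicate block (0.0621). The same held without WKY 8 wk replicate 3, 4 or 5 or WKY 24 wk replicate 2. In SHRs edgeR called 0 of the 24 values between these ages, 1 of them having an unadjusted p under 0.05 (percentages of all genes called 0.232%, 0.649% and 0.358%), and CVLM Abat differed by 0.15 ± 0.12.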

How the data were processed

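RNA-seq libraries of NTS, CVLM and RVLM punches from 46 female rats were analysed. The deposited values are expected counts per gene, which the authors estimated with RSEM, running STAR with default parameters, on the rn6 build; their methods also name ComBat_seq, and whether the tables were adjusted with it is not stated. About 5% of values were not whole (5.02%, 4.95% and 4.88% in the 3 tables), so values were rounded to whole numbers. Depth per library was 5904570 to 17889406 counts, and Slc32a1 had 1 to 74 counts per library. No columns were left unused.

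Genes whose highest rlog value was at least 3.5 were kept (13793, 13408 and 13411 genes), scaled by TMM and tested with edgeR 4.0.16 quasi-likelihood (robust) in R 4.3.3, with 1 coefficient per strain and age in each region. The p-values were adjusted by Benjamini-Hochberg over all genes tested, with a threshold of 0.05. Regions were compared in 1 fit that held all 138 libraries and blocked on the animal. DESeq2 1.42.0 and limma 3.58.1 served as alternatives, with other filters, the library number, marker covariates (mean log2 CPM, prior count 2), a replicate block and each rat left out in turn. The astrocyte covariate included S100b, which was lower in SHRs in each region. Groups came from the sample labels. Labels do not say more of how rats were allotted, so p-values of the strain and age fits measure the spread between these rats. Those of the regional fit, which blocked on the animal, measure the spread left within rats. The scripts were checked on simulated data. Likeness is Pearson r over rats of log2(CPM + 1) deviations from group means. The named genes are the 8 members, the 3 genes most like each, and the pathway genes called, of which 1 is not reported here. The members and lists were chosen with earlier results of these data known.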

Additional observations from a re-analysis of the deposited data

Results flagged for a closer look

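Among 168 groups of 4 to 6 rats, 18 held a rat far from the others by Dixon's criterion, which chance alone gives in about 1 in 20 groups. NTS Gad1 was 328 CPM in SHR 16 wk replicate 1 (others 239 to 272 CPM) and 504 CPM in SHR 24 wk replicate 6 (others 230 to 292 CPM), and NTS Gad2 was 356 CPM in that same rat (others up to 230.0 CPM). This rat is the only SHR at 24 wk with library number 2.

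Slc32a1 was high in NTS WKY 10 wk replicate 1 (3.39 CPM), NTS SHR 16 wk replicate 2 (5.02 CPM), CVLM SHR 10 wk replicate 5 (2.42 CPM) and RVLM SHR 10 wk replicate 2 (4.44 CPM, others 0.488 to 0.987 CPM), and low in CVLM SHR 8 wk replicate 1 (2.65 CPM). Slc6a11 was high in NTS SHR 24 wk replicate 2 (39.0 CPM), CVLM SHR 8 wk replicate 5 (29.0 CPM) and RVLM WKY 10 wk replicate 2 (90.4 CPM). Abat was high in CVLM SHR 24 wk replicate 5 (213 CPM, others 95.8 to 122 CPM) and RVLM SHR 16 wk replicate 1 (118 CPM, others 92.4 to 99.6 CPM).

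Aldh5a1 was low in NTS SHR 16 wk replicate 4 (21.1 CPM) and high in RVLM WKY 8 wk replicate 3 (43.95 CPM) and RVLM SHR 10 wk replicate 2 (49.8 CPM), the rat that also stood out for RVLM Slc32a1. Gabbr2 was high in NTS SHR 12 wk replicate 6 (40.7 CPM) and NTS SHR 24 wk replicate 1 (30.2 CPM).

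The CVLM Gad1 strain effect at 8 wk differed from the mean of the other ages by -0.66 ± 0.16 (edgeR adjusted p = 0.0499, from 0.0111 to 1 under other settings). The test for a strain effect that varies with age did not call this gene there (edgeR adjusted p = 0.276), so the value is a description only.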

How the results depend on the processing

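Of 120 single-age values 11 were called, 7 with each age fitted alone and 0 under the strict threshold (adjusted p under 0.01 and an absolute log2 difference of at least 1); the other alternatives gave 9 to 13, as did leaving out each rat. For the mean strain effect 5 of 24 were called, 0 under the strict threshold, 4 with covariates (NTS Gad1 and Gabbr1 lost, CVLM Gad1 gained) and 4 to 6 with each rat left out. A strain effect that varies with age was called in 0 of 24, in 1 with covariates, and in 0 with each rat left out. Over the ages 14 of 48 were called, against 0 with the library number as a term and 8 with covariates (DESeq2 18, 19 without number-2 libraries outside 10 wk, 11 to 17 with each rat left out). Between 24 and 8 wk 3 were called, 0 with the library number or without those libraries, and 0 to 4 with each rat left out. Between regions 36 of 48 were called, 23 with covariates, and 34 to 38 by limma voom with a fixed animal block, an alternative added after the data were seen, with each rat left out; strain effects differed between regions in 0, in 1 by limma voom with a random animal effect, and in 0 to 1 with each rat left out. The cause of these changes was not tested.

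Same-numbered rats of the strains had r over 0.1 in 33 of 54 pairs (-0.41 to 0.611, median 0.182), not in every pair as was required, so the numbers were not taken to pair them. With the replicate block 9 single-age values, 5 mean effects, 0 age-dependent effects, 17 age values and 2 values between 24 and 8 wk were called; Abat was not called at 12 wk in NTS (-0.38, edgeR adjusted p = 0.351) and RVLM (-0.41, 0.482) or at 24 wk in the NTS (-0.43, 0.155), and was called at 10 wk in the CVLM (0.0126). Without the animal as a replicate block 32 regional values were called and 0 strain effects between regions.

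Mean effects near 0 that were not called changed sign. Gad2 in the NTS was 0.078 with covariates, and in the CVLM 0.0083 by limma voom, 0.0073 with no filter, 0.0084 with the library number, 0.043 without number-2 libraries, and -0.062 to 0.071 with each rat left out. Slc32a1 in the NTS was 0.034 by limma voom, 0.089 with the replicate block and -0.068 to 0.123 with each rat left out, which gave -0.080 to 0.085 (CVLM) and -0.057 to 0.276 (RVLM). Aldh5a1 was -0.043 (NTS) and 0.0040 (CVLM) with covariates, and -0.017 to 0.073 and -0.084 to 0.0078 with each rat left out. Gabbr2 in the NTS was -0.039 without number-2 libraries, -0.0085 with covariates, -0.050 with the replicate block and -0.040 to 0.032 with each rat left out, and -0.093 to 0.0038 in the RVLM. The cause was not tested. Slc32a1 had 1 to 74 counts per library, and the part of its low counts was not tested.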
